A study of Homo sapiens with 6 samples.

Results

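The genes described are the chemokines, the interleukins and the interleukin receptors of HPNE-hTERT cells, together with LIF, its receptor LIFR and the colony-stimulating factors CSF1 to CSF3. Members were chosen by symbol among protein-coding genes: CXCL, CCL or IL with a number, CX3CL1, LIF, LIFR or CSF1 to CSF3. This gave 131 rows, with 129 different symbols because IL3RA and IL9R each have 2 rows, of 62754 genes in the deposited table. By role, 39 rows are chemokines, 44 are cytokines, 44 are receptor chains, 3 are antagonists or binding proteins and 1 is an enzyme named after an interleukin (IL4I1).

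HPNE-hTERT is a single non-malignant human pancreatic line, immortalized with telomerase and labelled as ductal epithelium. In the FOLFIRINOX group the cells received 25 nM SN-38 (the active form of irinotecan, a topoisomerase I inhibitor), 10 µM 5-fluorouracil and 5 µM oxaliplatin together for 4 days, a treatment given to make them senescent. In the vehicle group the same line received DMSO, and its RNA was taken at day 4. Each group has 3 libraries of polyadenylated RNA, which the table's column names call P14, P15 and P19.

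Chemokines are small secreted proteins that direct cell migration through G-protein-coupled receptors, and CXC chemokines with an ELR motif, such as CXCL8, attract neutrophils. Interleukins act through receptors built from several chains: the IL-6 family uses the shared chain IL6ST (gp130) and JAK and STAT proteins, while the IL-1 family uses paired receptors that lead to NF-kB. Secretion of such factors by senescent cells is known as the senescence-associated secretory phenotype, and CXCL8, CXCL1 and IL6 are among its usual members in fibroblasts.

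Each library held 83981154 to 97762802 reads counted in genes. The values below are normalized reads, always in the order P14, P15 and P19 within a group, and differences are on the log2(value + 1) scale with their SE, from limma with 3 libraries per group and Benjamini-Hochberg adjustment over 17951 genes. A gene was called at an adjusted p under 0.05. The labels do not say whether the libraries of a group are separate cultures, and the p-values cover nothing beyond the spread among these 6 libraries. The P numbers are taken to pair the libraries, since same-numbered libraries deviated together, but no label states this pairing. A fit with P number as a replicate block is given where it changes a member's call and for the pathway lists. The cell type label fits the markers in part. Of 10 ductal epithelial markers 6 were high enough to be tested, KRT18 among them with 7211, 7476 and 6759 normalized reads in FOLFIRINOX libraries and 10594, 10232 and 8878 in vehicle libraries, but KRT19 did not pass 17.7 in any library and EPCAM had reads in 1 of 6. Mesenchymal markers such as VIM and COL1A1 were abundant, and 5 of 6 of them fell. Ductal markers fell too, 2 of the 6 tested (KRT18 and SOX9), and 0 rose. Of all genes tested 12.2% were lower. With the block 6 mesenchymal and 4 ductal markers were lower, against 21.8% of all genes. In FOLFIRINOX libraries mitochondrial ribosomal RNA took 2.74%, 1.18% and 1.23% of reads, against 0.864%, 0.563% and 0.552% in vehicle libraries.

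Most members that changed fell. Of the 131 rows, 55 reached 10 normalized reads in 3 or more libraries and could be tested, and 2 of these (IL33 and CCL13) reached 10 only in FOLFIRINOX libraries. After FOLFIRINOX 13 of the 55 were called lower (23.6%), where 12.2% of all genes tested were, and 3 were called higher (5.45%), where 11.4% of all genes were. The genes that fell were the chemokines CXCL8, CXCL5, CXCL12, CXCL3, CXCL1 and CXCL2, the cytokines LIF, IL6 and IL32 and the receptor chains IL21R, IL15RA, IL31RA and IL12RB1, and those that rose were IL33, IL18R1 and IL11RA. With the replicate block 24 were lower (43.6%, against 21.8% of all genes) and 12 were higher (21.8%, against 22.3% of all genes). The median log2 difference was −0.36 over the 55 genes and 0.02 over all genes tested. Every library of 1 group lay beyond every library of the other for 19 members that were lower after FOLFIRINOX (34.5%, against 19.6% of all genes) and for 8 that were higher (14.5%, against 19.9%). Scaling to a common total moved the median of all genes by 0.11, with 13 members called lower and 6 higher, and higher genes then made up 61.2% of all calls in place of 48.3%. In bulk RNA, fewer cells that express a gene and less RNA of it per cell cannot be told apart.

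**Figure D1:**
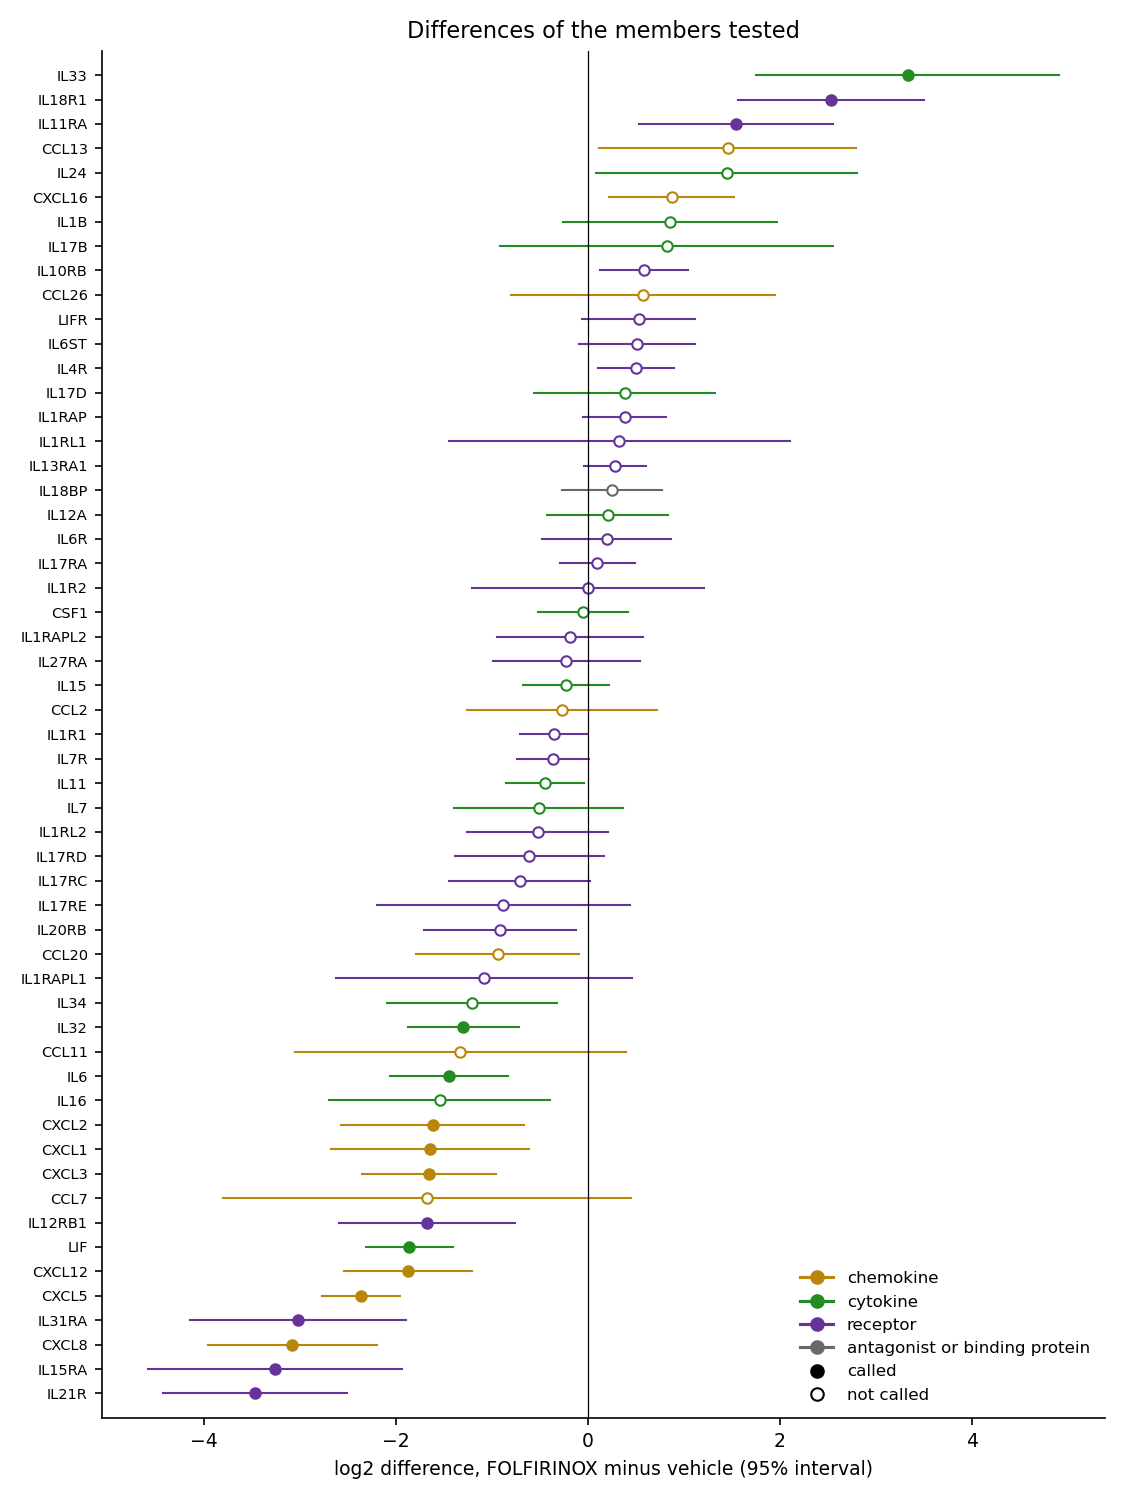
Log2 difference, FOLFIRINOX minus vehicle, of the 55 members tested (points) with 95% intervals (lines), coloured by role and filled where called by limma. The 13 filled points left of 0 run from −3.47 (IL21R) to −1.30 (IL32), and the 3 filled points right of 0 are IL11RA, IL18R1 and IL33.

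The neutrophil-attracting chemokines fell together. Of the 6 such genes among the members, CXCL1, CXCL2, CXCL3, CXCL5 and CXCL8 were tested and all 5 were lower after FOLFIRINOX, and CXCL6 had 6 reads in all. CXCL8, which codes for interleukin-8, had 1253, 486 and 422 normalized reads in FOLFIRINOX libraries, against 8795, 4055 and 4387 in vehicle libraries. The groups did not overlap, and within P14, P15 and P19 CXCL8 was 7.02-, 8.35- and 10.4-fold lower after FOLFIRINOX. CXCL5, which acts through CXCR2, had 383, 297 and 422 in FOLFIRINOX libraries and 1783, 1899 and 1970.2 in vehicle libraries. Its libraries were the most alike of the 5 genes, and it had the smallest error, with a log2 difference of −2.37 ± 0.19 and an adjusted p of 6.3e-06. CXCL8 had the larger difference, −3.08 ± 0.40 (adjusted p = 2.9e-04).

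CXCL3, CXCL1 and CXCL2 are close copies of one another at lower levels, and reads of such copies can be assigned to the wrong gene, so the split between them is uncertain. CXCL3 had 45.3, 37.4 and 28.0 normalized reads in FOLFIRINOX libraries and 121, 149 and 87.9 in vehicle libraries (log2 difference −1.66 ± 0.31, limma adjusted p = 0.0035). CXCL1 had 81.3, 41.3 and 20.5 in FOLFIRINOX libraries and 136, 191 and 86.0 in vehicle libraries (−1.64 ± 0.47, adjusted p = 0.027). CXCL2 had 31.9, 15.7 and 18.7 in FOLFIRINOX libraries and 102, 74.3 and 39.3 in vehicle libraries (−1.62 ± 0.43, adjusted p = 0.020). No FOLFIRINOX library reached any vehicle library in any of the 3 genes, although the highest FOLFIRINOX value of CXCL1 lay just under the lowest vehicle value. The call of CXCL1 was lost without FOLFIRINOX P15 or P19 or without vehicle P14 or P15, with adjusted p up to 0.0893, and that of CXCL2 without FOLFIRINOX P15 or vehicle P14 or P15, with adjusted p up to 0.0900. Without both P15 libraries the limma adjusted p was 0.123 for CXCL1 and 0.126 for CXCL2, and without both P14 libraries it was 0.064 for CXCL2. The log2 difference stayed between −2.13 and −1.16 for CXCL1 and between −1.996 and −1.31 for CXCL2 when single libraries were left out. CXCL3, CXCL5 and CXCL8 kept their calls when any single library was left out.

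**Figure D2:**
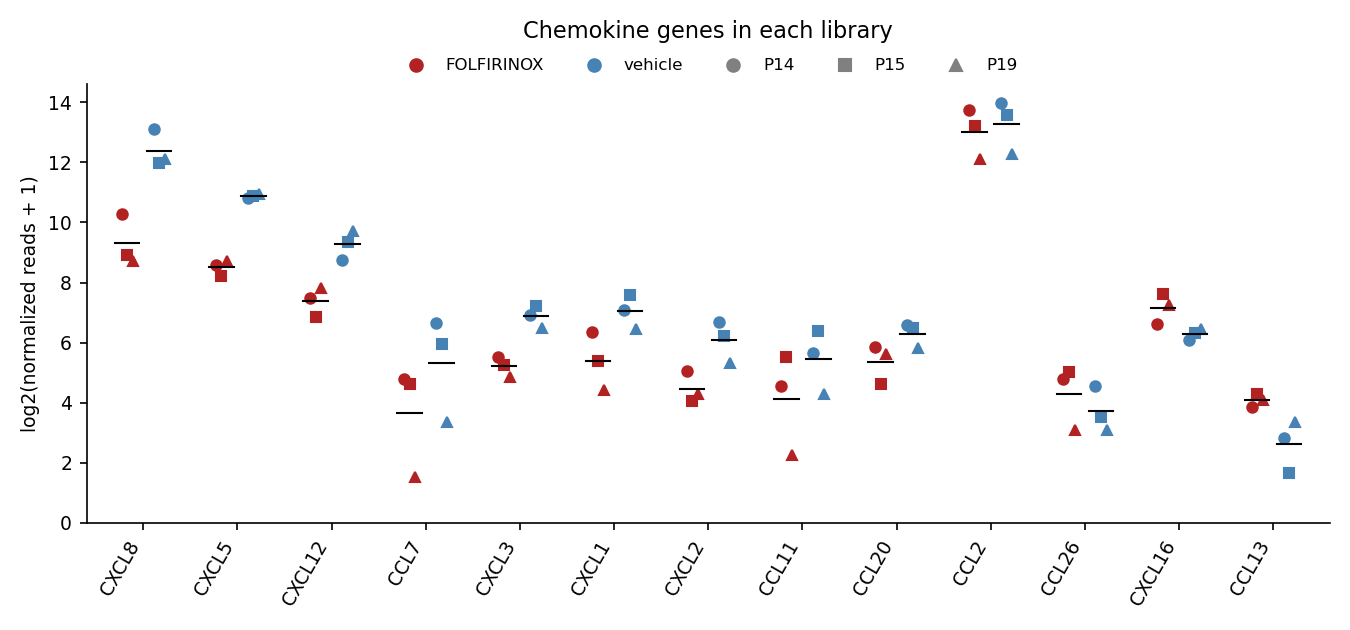
Level of the 13 tested chemokine genes in each library, as log2(normalized reads + 1), ordered by difference. Red symbols are FOLFIRINOX libraries and blue symbols vehicle libraries, the shape gives the P number and bars are group means; the red and blue symbols of CXCL8, CXCL5, CXCL12, CXCL3, CXCL1 and CXCL2 do not overlap, while those of CCL2 do.

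The 5 tested genes stand in 1 cluster on chromosome 4 (GENCODE 29, GRCh38), from the start of CXCL8 at 73740506 to the end of CXCL2 at 74099293, with CXCL6 between CXCL8 and CXCL1. Their promoters are shown because these genes fell together and because NF-kB sites in such promoters are known from textbooks; IL6, on chromosome 7, is shown beside them as a called cytokine. The sequences are RefSeq's (GRCh38.p14), 250 bases before to 50 bases after each start, on the gene's strand. They lie at chr4:73740319-73740618 (CXCL8, plus strand), chr4:73869143-73869442 (CXCL1, plus), chr4:73998628-73998927 (CXCL5, minus), chr4:74038640-74038939 (CXCL3, minus), chr4:74099146-74099445 (CXCL2, minus) and chr7:22726950-22727249 (IL6, plus). Capitals mark each match to GGNNNTTCC on either strand, where N is any base.
CXCL8: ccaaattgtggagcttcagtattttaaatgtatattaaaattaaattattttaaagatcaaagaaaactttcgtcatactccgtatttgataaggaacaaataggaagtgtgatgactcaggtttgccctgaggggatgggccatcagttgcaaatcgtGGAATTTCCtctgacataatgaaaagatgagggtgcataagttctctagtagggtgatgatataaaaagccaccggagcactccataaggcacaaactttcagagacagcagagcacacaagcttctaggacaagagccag
CXCL1: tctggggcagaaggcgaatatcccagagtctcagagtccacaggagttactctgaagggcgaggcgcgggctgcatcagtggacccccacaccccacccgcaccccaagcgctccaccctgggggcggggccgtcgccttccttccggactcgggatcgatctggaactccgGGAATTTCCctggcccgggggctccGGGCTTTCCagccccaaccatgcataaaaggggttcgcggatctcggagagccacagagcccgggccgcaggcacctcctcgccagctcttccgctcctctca
CXCL5: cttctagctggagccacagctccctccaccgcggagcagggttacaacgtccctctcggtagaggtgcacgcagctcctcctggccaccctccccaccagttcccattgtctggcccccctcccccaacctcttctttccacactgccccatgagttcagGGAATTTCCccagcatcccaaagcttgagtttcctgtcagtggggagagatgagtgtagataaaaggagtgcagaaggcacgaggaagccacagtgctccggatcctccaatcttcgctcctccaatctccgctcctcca
CXCL3: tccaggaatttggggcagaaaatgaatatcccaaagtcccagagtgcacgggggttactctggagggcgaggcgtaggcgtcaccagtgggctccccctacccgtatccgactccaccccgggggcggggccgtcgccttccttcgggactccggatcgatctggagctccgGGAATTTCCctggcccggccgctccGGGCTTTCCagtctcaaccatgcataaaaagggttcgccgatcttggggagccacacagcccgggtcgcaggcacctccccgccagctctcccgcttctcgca
CXCL2: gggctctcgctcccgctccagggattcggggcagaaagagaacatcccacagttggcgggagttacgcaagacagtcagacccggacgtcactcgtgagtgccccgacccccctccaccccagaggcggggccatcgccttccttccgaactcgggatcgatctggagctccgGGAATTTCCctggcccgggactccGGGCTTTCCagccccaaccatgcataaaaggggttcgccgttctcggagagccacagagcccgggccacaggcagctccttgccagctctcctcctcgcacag
IL6: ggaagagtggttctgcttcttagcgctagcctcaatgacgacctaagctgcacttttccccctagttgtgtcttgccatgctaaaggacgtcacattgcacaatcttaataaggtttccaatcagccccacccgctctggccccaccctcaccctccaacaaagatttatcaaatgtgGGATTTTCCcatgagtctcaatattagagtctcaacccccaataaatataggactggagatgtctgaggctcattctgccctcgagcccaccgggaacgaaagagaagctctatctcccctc

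A longer pattern of the NF-kB motif, GGG and any 2 bases followed by TTTCC, was found on the gene's strand in 4 of the 5 chemokine promoters and in that of IL6. It started 91 bases before the gene start in CXCL5, 79 in CXCL3 and CXCL1, 78 in CXCL2 and 73 in IL6, and read GGGAATTTCC in the 4 chemokine genes and GGGATTTTCC in IL6. CXCL8 has GGAATTTCC from 91 to 83 bases before its start, preceded by a T, so it matches only the shorter pattern, which lies within every match to the longer one. CXCL1, CXCL2 and CXCL3 have a further match to the shorter pattern, GGGCTTTCC, from 53 to 45 bases before the start. Searched on both strands, the longer pattern was in the promoters of 10 of the 45 tested members that have one in RefSeq's table (22.2%), and in 634 of 27303 genes with a promoter (2.32%). It was in 6 of 11 members called lower, 0 of 3 called higher and 4 of 31 not called. The sixth called member with it is IL32, where it starts 99 bases before the gene start. GGNNNTTCC, a pattern chosen after the values were seen, was in 22 of the 45 (48.9%) and in 23.5% of all genes, and the loosest, GGG and CC with any 5 bases between them, in 34 of the 45 (75.6%) and in 61.7% of all genes. The promoters of CXCL1 and CXCL3 were identical at 82.5% of aligned positions, those of CXCL3 and CXCL2 at 73.8% and those of CXCL8 and CXCL1 at 45.2%, so the members of the CXCL1 group are not independent examples of the motif. A match describes the letters only.

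Among the other chemokines, CXCL12 fell and CCL2 did not pass the test. CXCL12, the ligand of CXCR4 and ACKR3 and a homing factor for blood progenitors, had 179, 114 and 226 normalized reads in FOLFIRINOX libraries, against 430.3, 645 and 839 in vehicle libraries. The groups did not overlap and its log2 difference was −1.88 ± 0.30 (limma adjusted p = 0.0013). CCL2, the monocyte attractant that acts on CCR2, was the chemokine with the most normalized reads, with 13584, 9397 and 4429 in FOLFIRINOX libraries and 16221, 12359.8 and 4931 in vehicle libraries. Its level followed the P number, highest in P14 and lowest in P19 in both groups, and the groups overlapped. The log2 difference was −0.27 ± 0.45 with a 95% interval of −1.26 to 0.72 (limma adjusted p = 0.71). CCL2 was called lower once the P number was a block, at an adjusted p of 0.049.

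The neighbours of CCL2 on chromosome 17 were scarce. CCL7, another monocyte attractant, had 26.7, 23.6 and 1.87 in FOLFIRINOX libraries and 100.4, 60.5 and 9.35 in vehicle libraries (log2 difference −1.68 ± 0.96, limma adjusted p = 0.24, 0.0030 with the block). CCL11, the eosinophil attractant eotaxin, had 22.6, 45.2 and 3.74 in FOLFIRINOX libraries and 49.2, 82.8 and 18.7 in vehicle libraries (−1.33 ± 0.78, adjusted p = 0.25, 0.011 with the block). The groups of each overlapped, with P19 lowest under both treatments, and each FOLFIRINOX library lay below the vehicle library of its number. Single libraries moved both differences: that of CCL7 was −0.62 without FOLFIRINOX P19, −1.01 without vehicle P14 and −2.66 without vehicle P19, where it was called (adjusted p = 0.039), and that of CCL11 was −0.40 without FOLFIRINOX P19 and −2.04 without FOLFIRINOX P15. CCL13 was on the other side, with 13.4, 18.7 and 15.9 in FOLFIRINOX libraries and 6.15, 2.12 and 9.35 in vehicle libraries, but was called in neither fit (1.46 ± 0.61, adjusted p = 0.11, 0.078 with the block). CCL20, the ligand of CCR6, had 56.6, 23.6 and 47.6 in FOLFIRINOX libraries and 95.3, 89.1 and 55.1 in vehicle libraries (−0.94 ± 0.38, adjusted p = 0.10), and it was called lower only with the block (0.020). CXCL16, a chemokine made as a transmembrane protein and the ligand of CXCR6, had 96.7, 195 and 151 in FOLFIRINOX libraries and 67.6, 78.5 and 86.0 in vehicle libraries. It was the only chemokine called higher in either limma fit, with a difference of 0.87 ± 0.29 and an adjusted p of 0.054 without the block and 0.0047 with it. On the recovered reads without a block, CXCL16 was called by edgeR (adjusted p = 0.045) and by DESeq2 (0.019). Its exons overlap those of MED11 on the other strand. Without a block, 6 of the 13 tested chemokines were lower and 0 higher (12.2% and 11.4% of all genes), and with it 10 were lower and 1 higher (21.8% and 22.3% of all genes).

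Most chemokine receptors had few or no reads in these cells. Of 23 chemokine receptor genes only 2 could be tested. Both were called lower without and with the block, where 12.2% and 21.8% of all genes were. CCR10 had 81.3, 57.0 and 79.4 normalized reads in FOLFIRINOX libraries and 144, 152 and 129 in vehicle libraries, with a log2 difference of −0.97 ± 0.25 (limma adjusted p = 0.018). CCRL2, an atypical receptor, had 55.6, 41.3 and 35.5 in FOLFIRINOX libraries and 129, 93.4 and 69.2 in vehicle libraries, with a difference of −1.10 ± 0.32 (adjusted p = 0.031). CXCR4 and CCR6 had no read in any library, and CXCR2 had 2.06, 7.87 and 0 in FOLFIRINOX libraries and 0 in each of the 3 vehicle libraries.

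Of the IL-6 family cytokines, LIF and IL6 fell. LIF, which signals through LIFR and gp130, was the most abundant of them, with 1232, 1978 and 1543 normalized reads in FOLFIRINOX libraries and 5285, 6865 and 5003 in vehicle libraries. Its groups lay far apart and the log2 difference was −1.86 ± 0.21 (limma adjusted p = 9.1e-05), 3.64-fold lower, though its exons overlap the antisense gene LIF-AS1 and the counting strand is not given. IL6, which signals through IL6R and gp130, had 116, 64.9 and 94.3 in FOLFIRINOX libraries and 312, 231 and 203 in vehicle libraries (−1.44 ± 0.28, adjusted p = 0.0038), again without overlap of the groups. Exons of IL6 overlap AC073072.1 and STEAP1B on the other strand. IL11, the ligand of IL11RA, had 669.7, 603 and 516 in FOLFIRINOX libraries and 912, 812 and 718 in vehicle libraries. These did not overlap either, but the difference of −0.45 ± 0.19 was called only with the block (adjusted p = 0.014, 0.10 without it).

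IL32, a proinflammatory cytokine with no close relatives, fell, with 181, 267 and 144 in FOLFIRINOX libraries and 588, 455 and 392 in vehicle libraries (−1.30 ± 0.26, limma adjusted p = 0.0048). The call was lost only when both P14 libraries were left out (adjusted p = 0.062). Exons of IL32 overlap RNU1-125P on the same strand. IL16, whose processed form attracts CD4+ cells, had 36.0, 55.1 and 12.1 in FOLFIRINOX libraries and 77.9, 143 and 58.9 in vehicle libraries. It did not pass the limma test without the block (−1.55 ± 0.52, adjusted p = 0.054) and did with it (2.4e-04). On the recovered reads without a block, DESeq2 called it (adjusted p = 0.017) and edgeR did not (0.063). IL16 shares exons with STARD5 on the other strand. Without FOLFIRINOX P19 its difference was −0.95. IL34 and CSF1 are the ligands of the macrophage receptor CSF1R. IL34 had 22.6, 11.8 and 14.9 in FOLFIRINOX libraries and 47.1, 32.9 and 35.5 in vehicle libraries (−1.21 ± 0.40, adjusted p = 0.051, 0.021 with the block), and CSF1 had 1768, 2632 and 1855 in FOLFIRINOX libraries and 2275, 2518 and 1672 in vehicle libraries. The difference of CSF1 was −0.05 ± 0.21 with a 95% interval of −0.52 to 0.42, and its sign turned when the libraries were scaled to a common total. CSF2 had 6 reads over the 6 libraries and CSF3 had none.

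Of the IL-1 family cytokines IL33 rose. IL33, a nuclear protein that acts as an alarm signal when released, had 26.7, 20.7 and 26.1 normalized reads in FOLFIRINOX libraries and 2.05, 4.24 and 0 in vehicle libraries, which are 75 reads against 6. The groups did not overlap, and the log2 difference was 3.33 ± 0.72 (limma adjusted p = 0.0069). IL33 was tested only because its FOLFIRINOX libraries, in which it is high, passed the filter. The difference was 2.67 without vehicle P19, and the call was lost without both P14 libraries (adjusted p = 0.057). IL1B, the main secreted agonist of IL1R1, had 333, 185 and 87.8 in FOLFIRINOX libraries and 172, 104 and 50.5 in vehicle libraries. The groups overlapped, with P14 highest and P19 lowest under both treatments, and IL1B was 1.94-, 1.78- and 1.74-fold higher after FOLFIRINOX within P14, P15 and P19. Its difference of 0.85 ± 0.50 (95% interval −0.26 to 1.97) had an adjusted p of 0.25 without the block and 0.0024 with it. IL1A had 26 reads over all 6 libraries, below the filter, and the proinflammatory IL18 and the receptor antagonist IL1RN had none.

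IL24, an IL-10 family cytokine, was also highest in P14 and lowest in P19 under both treatments. It had 335, 173 and 85.9 in FOLFIRINOX libraries and 164, 55.2 and 26.2 in vehicle libraries, and within P14, P15 and P19 it was 2.05-, 3.14- and 3.28-fold higher after FOLFIRINOX. The log2 difference was 1.45 ± 0.62, with a limma adjusted p of 0.12 without the block and 1.6e-05 with it, and it was 2.14 without vehicle P14 and 0.84 without vehicle P19. IL15 and IL7 support lymphocyte survival. IL15 had 896, 565 and 652 in FOLFIRINOX libraries and 823, 749 and 863 in vehicle libraries, with a difference of −0.23 ± 0.20 (95% interval −0.68 to 0.22). IL7 had 45.3, 33.4 and 22.4 in FOLFIRINOX libraries and 57.4, 29.7 and 59.8 in vehicle libraries (−0.52 ± 0.40, interval −1.40 to 0.37). Neither was called in either fit. Of the 15 cytokines tested, 3 fell and 1 rose, where 12.2% and 11.4% of all genes did, and with the block 6 were lower and 3 higher, where 21.8% and 22.3% of all genes were.

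**Figure D3:**
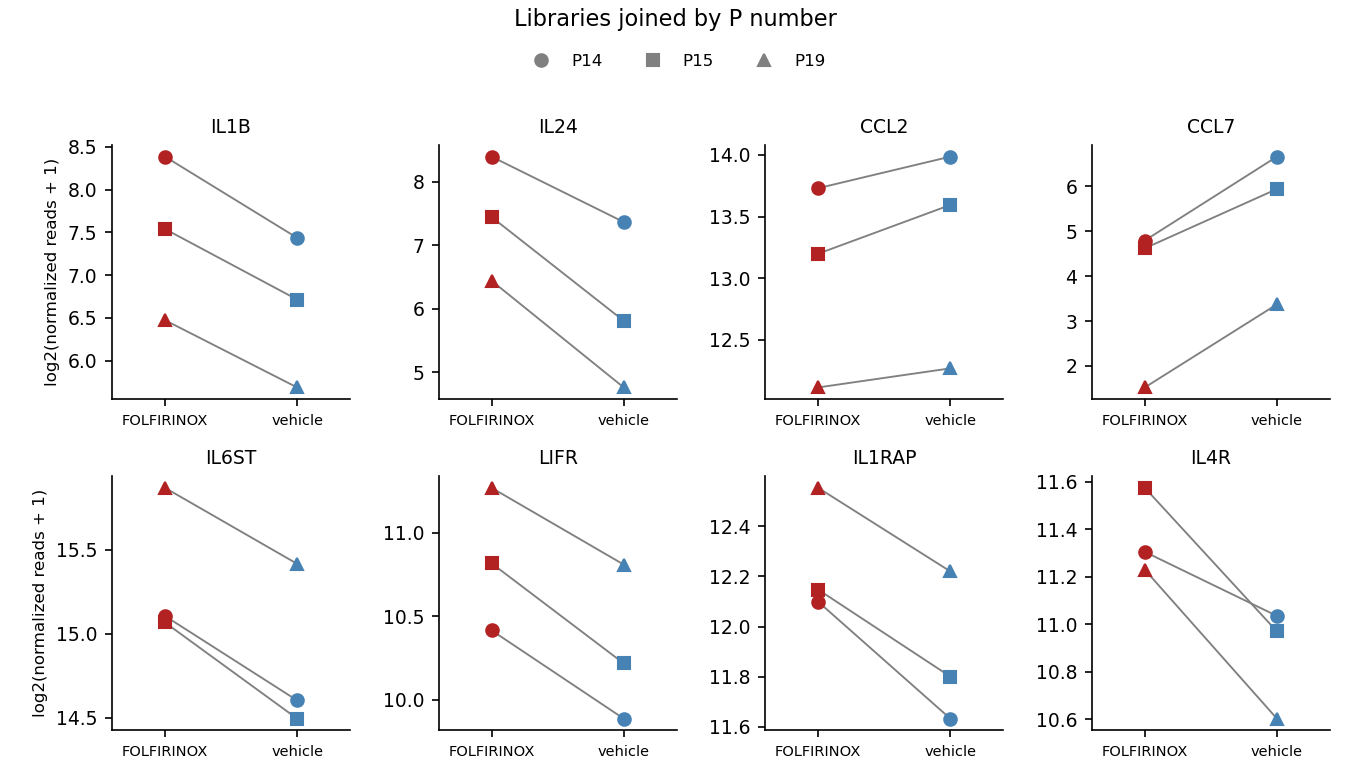
Level of 8 members in each library, as log2(normalized reads + 1) on an axis that differs by gene and does not start at 0, with FOLFIRINOX at left and vehicle at right and lines joining libraries of the same P number. All 3 lines slope the same way for each gene, while for IL1B, IL24, CCL2, CCL7, IL6ST, LIFR and IL1RAP the range over P numbers within a group is wide enough that the groups overlap.

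Of the 26 receptor chains tested 4 fell and 2 rose, where 12.2% of all genes were lower and 11.4% higher. With the block 8 were lower and 8 higher, where 21.8% and 22.3% of all genes were. IL21R, the specific chain of the IL-21 receptor, had 20.6, 23.6 and 16.8 normalized reads in FOLFIRINOX libraries, against 343, 346 and 107 in vehicle libraries. It had the largest difference of all 55 members, −3.47 ± 0.43 (limma adjusted p = 2.3e-04), or 11.1-fold lower on the log2(value + 1) scale, and the groups were far apart. Its exons overlap IL21R-AS1 on the other strand and the counting strand is not given, so reads of the pair may be mixed. IL15RA, which presents IL-15 to neighbouring cells, had 14.4, 1.97 and 13.1 in FOLFIRINOX libraries and 71.7, 110.3 and 69.2 in vehicle libraries (−3.26 ± 0.60, adjusted p = 0.0029). Its FOLFIRINOX P15 library was the lowest, and without it the difference was −2.49. Exons of IL15RA overlap AL137186.2 on the same strand. IL31RA, which pairs with OSMR to bind IL-31, had 6.17, 7.87 and 29.9 in FOLFIRINOX libraries and 100.4, 97.6 and 104 in vehicle libraries (−3.02 ± 0.51, adjusted p = 0.0018). Here FOLFIRINOX P19 was the highest of its group, and without it the difference was −3.67, while the vehicle libraries were nearly equal. IL12RB1, a chain shared by the IL-12 and IL-23 receptors, had 20.6, 19.7 and 9.34 in FOLFIRINOX libraries and 49.2, 67.9 and 43.0 in vehicle libraries (−1.68 ± 0.42, adjusted p = 0.014). Its call was lost without vehicle P15 (adjusted p = 0.059), without both P14 libraries (0.051) and without both P15 libraries (0.070).

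Several partner chains of these receptors had almost no reads. IL2RG, the common gamma chain that IL21R and the IL-15 receptor need, had 4 reads, all in vehicle P15, and IL2RB had 10. IL12RB2 had 4 reads and IL23R had 2. OSMR, the partner of IL31RA, was abundant, with 15708, 18501 and 15224 normalized reads in FOLFIRINOX libraries and 16194, 20830.0 and 15766 in vehicle libraries. IL20RB had 37.0, 38.4 and 22.4 in FOLFIRINOX libraries and 55.3, 83.8 and 48.6 in vehicle libraries, and IL17RC had 66.9, 50.2 and 40.2 in FOLFIRINOX libraries and 109, 96.6 and 57.9 in vehicle libraries. These chains of the IL-20 and IL-17 receptors were called lower only with the block (limma adjusted p = 0.026 for IL20RB and 0.042 for IL17RC, against 0.089 and 0.15 without it). Exons of IL20RB overlap NCK1 on the same strand and IL20RB-AS1 on the other.

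IL18R1, the ligand-binding chain of the IL-18 receptor, rose. It had 132, 114 and 53.2 normalized reads in FOLFIRINOX libraries, against 24.6, 12.7 and 11.2 in vehicle libraries. The groups did not overlap, and the log2 difference was 2.53 ± 0.44 (limma adjusted p = 0.0021), 5.78-fold higher. Its signalling partner IL18RAP had 2 reads and its ligand IL18 none. IL18R1 shares exons with IL1RL1, the IL-33 receptor, on the same strand, so some reads may belong to either, and IL1RL1 itself had 55.6, 21.6 and 3.74 in FOLFIRINOX libraries and 24.6, 10.6 and 9.35 in vehicle libraries (0.33 ± 0.80, adjusted p = 0.80). IL11RA, the specific chain for IL-11, had 60.7, 89.5 and 51.4 in FOLFIRINOX libraries and 10.2, 31.8 and 30.8 in vehicle libraries (1.55 ± 0.46, adjusted p = 0.033). Its exons overlap GALT on the same strand, and the call was lost without FOLFIRINOX P14 or P15 or vehicle P14 (adjusted p up to 0.112). It was also lost without both P14 libraries (adjusted p = 0.123) and without both P15 libraries (0.085).

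Leukocyte markers, as a sum, were also higher in FOLFIRINOX libraries. The 8 markers summed to 35.0 to 99.9 normalized reads in FOLFIRINOX libraries and to 6.37 to 24.6 in vehicle libraries, and 2 of the 8 could be tested, with 0 called without the block and 1 with it. That one, CD14, had 18.5, 21.6 and 29.9 in FOLFIRINOX libraries and 9.22, 0 and 9.35 in vehicle libraries, with a log2 difference of 2.34 ± 0.86 (limma adjusted p = 0.073, 0.0069 with the block), and it reached 10 only in FOLFIRINOX libraries. PTPRC, the defining one, had 4.11, 3.93 and 35.5 in FOLFIRINOX libraries and 0 in each vehicle library, and CD3E and MS4A1 did not pass 3.93 in any library. The part of these markers in the results was not tested.

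**Figure D4:**
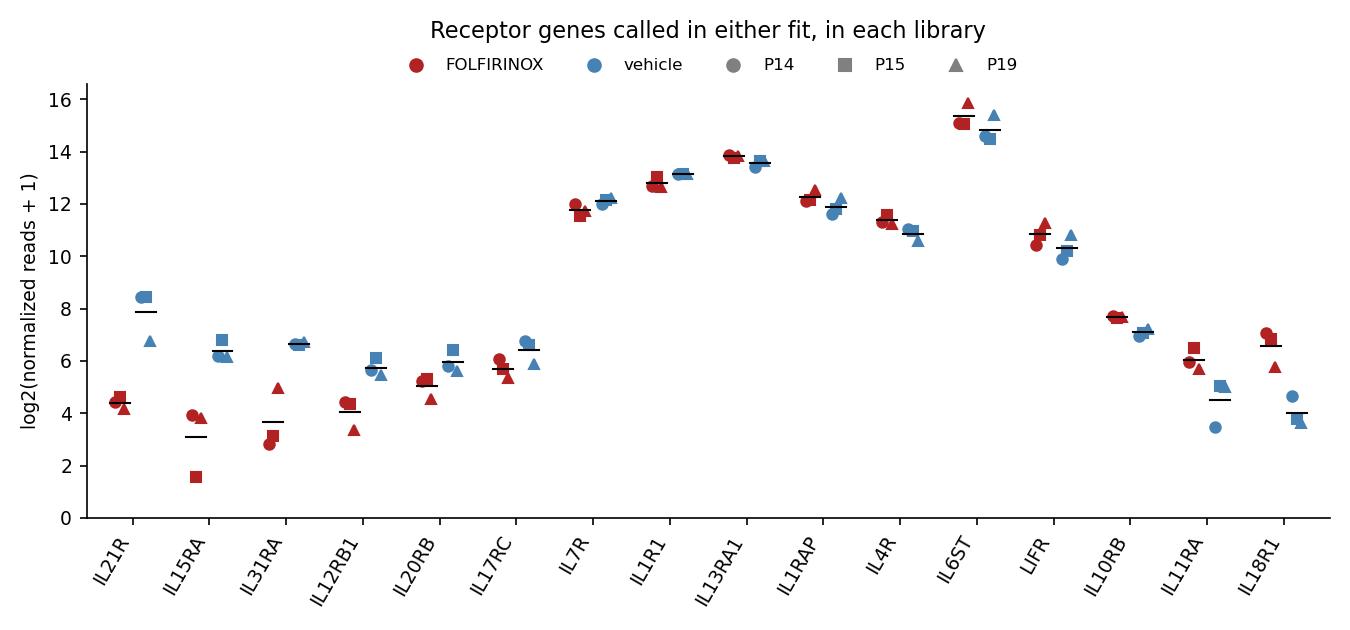
Level of the 16 receptor genes called with or without the replicate block in each library, as log2(normalized reads + 1), ordered by difference. Red symbols are FOLFIRINOX libraries and blue symbols vehicle libraries, the shape gives the P number and bars are group means; IL21R, IL15RA, IL31RA and IL12RB1 at left and IL11RA and IL18R1 at right show the widest gaps, and the abundant chains between them show narrow ones.

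The abundant receptor chains had smaller differences, and their calls depended on the pairing. IL6ST, the gp130 chain shared by the IL-6 family, had 35253, 34321 and 59855 normalized reads in FOLFIRINOX libraries and 24877, 23072 and 43736 in vehicle libraries. P19 was the highest under both treatments and the groups overlapped, with a log2 difference of 0.51 ± 0.27 and a limma adjusted p of 0.21 without the block and 1.6e-04 with it. LIFR, the LIF receptor chain, had 1365, 1803 and 2465 in FOLFIRINOX libraries and 947, 1190.5 and 1794 in vehicle libraries (0.53 ± 0.27, adjusted p = 0.18, 0.0014 with the block). IL1RAP, the shared signalling chain of IL-1 family receptors, had 4386, 4536 and 6009.6 in FOLFIRINOX libraries and 3176, 3567 and 4770.3 in vehicle libraries (0.38 ± 0.20, 0.19, 0.0083 with the block). In all 3 genes the P numbers ranked the same way in both groups, with P19 highest. Exons of IL1RAP overlap AC108747.1 on the same strand.

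IL4R and IL13RA1 form the receptor for IL-4 and IL-13 on non-blood cells, and in neither did the groups overlap. IL4R had 2529.6, 3049.8 and 2401 in FOLFIRINOX libraries and 2098, 2005 and 1554 in vehicle libraries, with a log2 difference of 0.50 ± 0.18 (limma adjusted p = 0.068, 0.0019 with the block). IL13RA1 had 15139.6, 14004 and 14759 in FOLFIRINOX libraries and 10828, 12705 and 12707 in vehicle libraries (0.28 ± 0.15, 0.20, 0.039 with the block). The decoy IL13RA2 had 17.5, 1.97 and 1.87 in FOLFIRINOX libraries and 0, 0 and 1.87 in vehicle libraries, which is below the filter. IL10RB, a chain shared by IL-10 family receptors, had 212, 197 and 203 in FOLFIRINOX libraries and 124, 135 and 149.5 in vehicle libraries (0.58 ± 0.21, 0.068, 0.024 with the block). Exons of IL10RB overlap AP000295.1 on the same strand. On the lower side, IL1R1, the IL-1 receptor, had 6549, 8416 and 6422 in FOLFIRINOX libraries and 9074, 9092 and 9014 in vehicle libraries (−0.36 ± 0.16, 0.13, 0.012 with the block). IL7R had 4147, 2978 and 3383 in FOLFIRINOX libraries and 4062, 4578 and 4782 in vehicle libraries (−0.36 ± 0.17, 0.15, 0.021 with the block), and its groups overlapped through P14. IL17RA, the common IL-17 receptor chain, had 2728, 3319 and 2974 in FOLFIRINOX libraries and 2919, 3278 and 2298 in vehicle libraries, with a difference of 0.10 ± 0.18 (95% interval −0.30 to 0.49). IL6R, the specific chain for IL-6, had 137, 153 and 75.6 in FOLFIRINOX libraries and 86.1, 106 and 116 in vehicle libraries, with a difference of 0.19 ± 0.30 (interval −0.48 to 0.86). The groups of both genes overlapped, and both differences changed sign without 1 library, vehicle P19 for IL17RA and FOLFIRINOX P15 for IL6R. IL18BP, a secreted protein that binds IL-18, had 108, 145 and 144 in FOLFIRINOX libraries and 102, 118 and 110.3 in vehicle libraries, with a difference of 0.25 ± 0.24 (interval −0.27 to 0.77). The other 12 tested members (IL1RAPL1, IL17RE, IL17RD, IL1RL2, IL27RA, IL1RAPL2, IL1R2, IL12A, IL1RL1, IL17D, CCL26 and IL17B) were called in neither fit.

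Members varied more between libraries than genes in general. The median SD within a group was 0.48 on the log2 scale over the 55 members and 0.29 over all genes tested, and the median SE of the difference was 0.36 over the members and 0.23 over all genes. Members and all genes were not matched for level, and only 28 of the 55 members had a mean of 100 or more in either group. The part of low levels in the wider spread was not tested. The median SD of the differences within P numbers was 0.36 for members and 0.26 for all genes. A difference carries the spread of both its libraries, so this SD is not directly comparable with the SD within a group. The 3 P numbers ranked the same way in both groups for 21 members (38.2%, against 30.2% of all genes), and 40 members (72.7%, against 65.2% of all genes) differed in 1 direction in all 3 P numbers. P14 was the highest library of both groups for 15 members (27.3%, against 15.98% of all genes), among them CCL2, CXCL8, IL6, IL1B and IL24, and P19 was for 6 (10.9%, against 19.3%), among them IL6ST, LIFR and IL1RAP. P14 also had the highest mitochondrial ribosomal RNA share of each group; its part in these levels was not tested. In the limma fits no member called without the block lost its call with it, and 20 members were called only with it, 11 lower and 9 higher. With the block the share called lower went from 23.6% to 43.6% of members and from 12.2% to 21.8% of all genes. The share called higher went from 5.45% to 21.8% of members and from 11.4% to 22.3% of all genes. Of the 20 members called only with the block, CCL2, CCL20, IL11, IL7R, IL1R1, IL13RA1, IL1RAP and IL4R were not called when the block was fitted without the mean-variance trend.

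**Figure D5:**
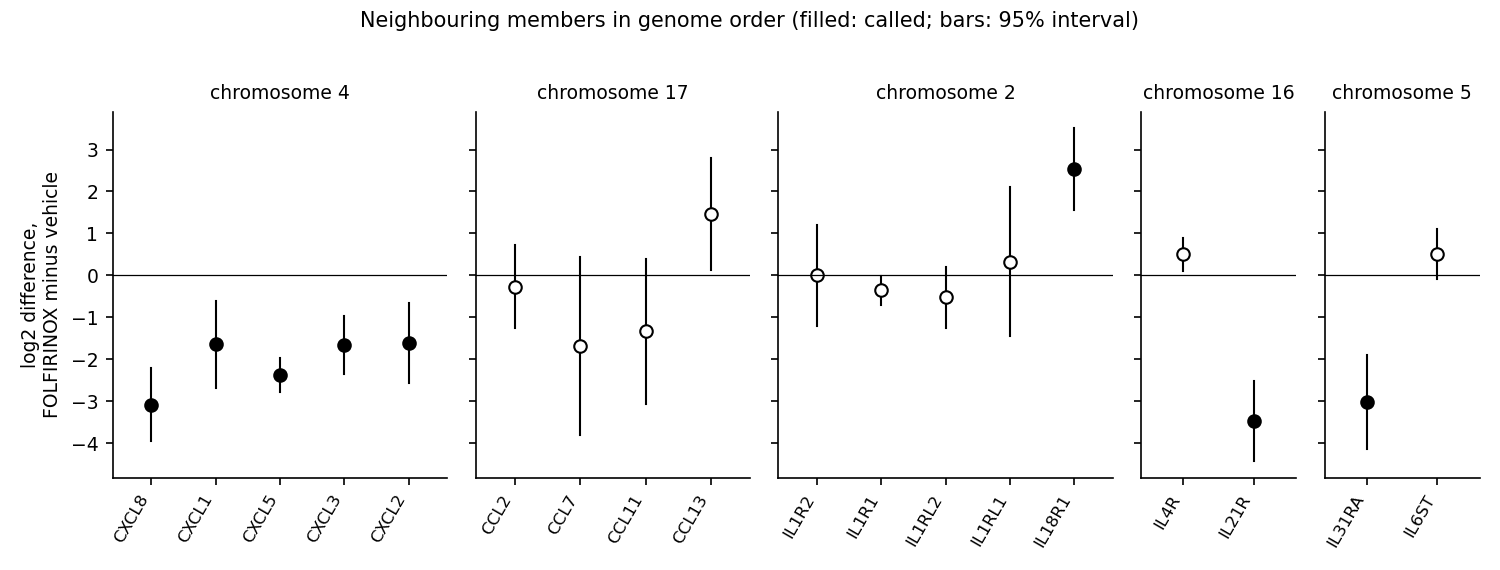
Log2 difference, FOLFIRINOX minus vehicle, of tested members that neighbour one another (gaps of at most 500000 bases), in genome order, with 95% intervals and filled points where called by limma. The 5 CXCL genes of chromosome 4 are all filled and below 0, while IL21R and IL31RA lie far below their neighbours IL4R and IL6ST.

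Members that lie next to each other did not always move together, as the plot of neighbouring members shows. All 5 tested chemokines of the chromosome 4 cluster fell, with log2 differences of −3.08 to −1.62, whereas CXCL9, CXCL10 and CXCL11 further along the chromosome had 8, 2 and 6 reads. On chromosome 16, IL4R (27313668 to 27364778) had a difference of 0.50 and IL21R (27402162 to 27452042), on the same strand, one of −3.47. On chromosome 5, IL31RA (55851379 to 55922853, plus strand) had −3.02 and IL6ST (55935095 to 55994993, minus strand) had 0.51. On chromosome 2, IL18R1 rose by 2.53, while IL1R2, IL1R1, IL1RL2 and IL1RL1 beside it had differences from −0.52 to 0.33 and none was called without the block. Coordinates are GENCODE 29 on GRCh38.

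Levels can be compared between genes only per length, for which RPKM values (reads divided by exon length in kilobases and by the library's total) were computed from the recovered reads. In FOLFIRINOX libraries the highest were IL6ST at 54.1 ± 18.1, CCL2 at 53.4 ± 25.7 and IL13RA1 at 39.0 ± 0.262 RPKM, and in vehicle libraries CCL2 at 60.5 ± 30.3, IL6ST at 35.6 ± 13.8 and IL13RA1 at 29.9 ± 3.22 RPKM (mean ± SD, n = 3). The place of CCL2 among these 3 is within its spread in both groups. In vehicle libraries the order of IL6ST and IL13RA1 is within theirs. CXCL8 stood at 3.65 ± 2.22 RPKM and place 11 of the members after FOLFIRINOX, against 27.1 ± 11.9 RPKM and place 4 in vehicle libraries. LIF stood at 4.68 ± 1.28 RPKM and place 8 after FOLFIRINOX, against 15.6 ± 2.85 RPKM and place 5 in vehicle libraries, and CXCL5 at 1.68 ± 0.260 RPKM and place 14, against 8.03 ± 0.549 RPKM and place 7. IL6, at 0.514 ± 0.127 RPKM after FOLFIRINOX and 1.30 ± 0.270 RPKM in vehicle libraries, stood at place 21 after FOLFIRINOX and place 15 in vehicle libraries.

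Genes that carry these signals inside the cell, from lists of other genes of the same pathways, moved in both directions. Without the block 12.2% of all genes tested were lower and 11.4% higher, and with it 21.8% lower and 22.3% higher. Of 27 genes of NF-kB and IL-1 receptor signalling, 3 fell and 1 rose, and with the block 5 were lower and 5 higher, with a median log2 difference of −0.06. NFKB1, the p50 precursor, had 2813, 3458 and 3636 normalized reads in FOLFIRINOX libraries and 4929, 5776 and 5419 in vehicle libraries (−0.71 ± 0.16, limma adjusted p = 0.0099). NFKB2 (−0.61 ± 0.19, adjusted p = 0.040) and the NF-kB inhibitor TNFAIP3 (−0.51 ± 0.16, adjusted p = 0.044) also fell, the kinase IRAK4 rose (0.58 ± 0.14, adjusted p = 0.014), and RELA had −0.06 ± 0.20 (adjusted p = 0.85). The 22 JAK, STAT and SOCS genes had a median of 0.05, and 4 of them rose while 2 fell. With the block 6 were lower and 6 higher, among them SOCS4, which had 4614, 4878 and 8152 in FOLFIRINOX libraries and 3028, 3087 and 4996 in vehicle libraries (adjusted p = 0.089, 2.4e-05 with the block). STAT4 rose to 1732, 1243 and 1342 in FOLFIRINOX libraries, against 288, 271 and 267 in vehicle libraries (2.37 ± 0.19, adjusted p = 6.7e-06). STAT3 (1.08 ± 0.16, adjusted p = 8.5e-04) and the phosphatase PTPN11 (0.58 ± 0.18, adjusted p = 0.042) rose, and SOCS3 (−0.59 ± 0.18, adjusted p = 0.034) and CISH (−1.56 ± 0.41, adjusted p = 0.019), both feedback inhibitors of cytokine receptors, fell.

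Related cytokines and receptors that the naming rule does not reach numbered 24, of which 11 could be tested, 3 rose and 2 fell, with the same counts under the block. For these and the lists below, 12.2% of all genes tested were lower and 11.4% higher without the block, and 21.8% and 22.3% with it. EBI3, a subunit of IL-27 and IL-35, had 80.2, 120.0 and 162 normalized reads in FOLFIRINOX libraries, against 16.4, 19.1 and 9.35 in vehicle libraries (2.93 ± 0.39, limma adjusted p = 3.6e-04). CTF1, a gp130 cytokine (1.04 ± 0.19, adjusted p = 0.0028), rose, as did CSF2RB (2.24 ± 0.51, adjusted p = 0.0090), which was tested only because its FOLFIRINOX libraries passed the filter, with 20.6, 21.6 and 26.1 in these against 4.10, 4.24 and 3.74 in vehicle libraries, and CSF1R (−2.56 ± 0.39, adjusted p = 9.0e-04) and TNFRSF1B, a TNF receptor (−1.21 ± 0.23, adjusted p = 0.0032), fell. Of 14 genes for the decay or stability of cytokine mRNA, 2 fell, KHSRP (−0.72 ± 0.17, adjusted p = 0.0098) and HNRNPD (−0.86 ± 0.17, adjusted p = 0.0039), and 0 rose, with a median of −0.01. With the block 4 were lower and 2, TIA1 and N4BP1, were higher (adjusted p = 0.0029 for TIA1 and 0.021 for N4BP1, against 0.19 and 0.15 without it). Of 12 C/EBP and interferon regulatory factors 8 could be tested and 1, IRF1, fell (−0.77 ± 0.17, adjusted p = 0.0077), and CEBPD was called higher with the block (0.36 ± 0.19, adjusted p = 0.21, 0.036 with the block). The median was −0.07, against 0.02 over all genes tested.

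The remaining 76 rows could not be tested. Of these, 40 had no read in any library, among them IL2, IL4, IL10, IL13, IL17A, IL18, IL1RN, CCL4 and CSF3, and 36 had some. The highest single value among the 76 was 17.5 normalized reads (IL13RA2 in FOLFIRINOX P14), and the most reads over all libraries were 43 for IL23A and 29 for IL19. The chemokines CCL5 and CX3CL1 had 4 reads each and CCL3 had 17. At this depth a change in these genes was not detectable. In the authors' deposited table, 62 member rows have an adjusted p and 14 were lower and 4 higher at an adjusted p under 0.05, where 2300 genes were lower and 2208 higher in all. How many genes in all have an adjusted p there was not counted, so no share stands beside these counts.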

How the data were processed

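Polyadenylated RNA was sequenced from 6 libraries, 3 after FOLFIRINOX and 3 after DMSO. Per the submitters' processing notes, reads on GRCh38 went through STAR 2.7.11b, FastQC 0.12.1 and featureCounts 2.0.6, and DESeq2 was used. The strand setting, the annotation release and the design of the DESeq2 fit were not stated in the labels or notes (not given in the sources used here). The deposited signal is a read count per gene divided by the authors' size factor. The authors also deposited a Wald score, p-values and log2 fold changes. In every library 100% of the deposited values were whole multiples, within 0.001, of the value of 1 read, so reads were recovered. From 72.3% to 74.8% of counts below 50 were even, so reads may be counted singly from both ends of a fragment.

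Values were tested with limma 3.58.1 (R 4.3.3, mean-variance trend) on log2(value + 1), which understates the change of low genes, for the 17951 genes that reached 10 in 3 or more libraries. An exact permutation test of 3 against 3 libraries cannot go below p = 0.1. In simulated data the limma step found 99 of 100 genes changed 4-fold and 38 of 100 changed 2-fold among 17951, with 4 false calls. The simulation gave every gene the same dispersion and had no P-number effect, so these rates do not carry over to members with a wider spread. edgeR 4.0.16 on the recovered reads called 1987 genes higher and 2183 lower; DESeq2 1.42.0, other scalings, filters and pseudocounts, and leaving out libraries were further alternatives. Fits without both libraries of 1 P number and edgeR with the block were chosen after seeing the data.

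The P numbers come from the column names, not from the labels, and a column was matched to its group but to no numbered sample. Deviations from the group means correlated at 0.257, 0.282 and 0.288 between libraries of the same P number, all above the 0.1 set for pairing, and at −0.26 to −0.03 between others. Within a group these deviations cancel out, so the negative values follow in part from the positive ones and are no separate evidence of pairing. Calls made only with the block rest on this pairing. Members and gene lists were chosen with earlier results of these data known. Every tested member called with or without the block is given by library, others where a group mean is 100 or more or where they stand on a list of well-known members. Coordinates and exon lengths are from GENCODE 29, which has a gene for 129 of the 131 rows, and 22 of the 55 tested members share exon positions with another gene. Only some of these overlaps are named above. RefSeq's promoter table matched 45 of the 55. Protein sequences were not used here. Some genes of the lists are not reported here.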

Additional observations from a re-analysis of the deposited data

How the results depend on the processing

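For 42 named members and 21 alternatives, 764 of 874 values kept their direction and their side of the threshold, 23 lost a call, 76 gained one, most of them with the replicate block, and 11 reversed, none of them of a called member. Of the 16 called members, 10 kept their call under every alternative run. The exceptions were CXCL1, CXCL2, IL12RB1, IL11RA, IL32 and IL33. CXCL1 and IL11RA also lost it without the mean-variance trend, and IL11RA without a filter on low values.

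With the replicate block, members called higher and lower numbered 12 and 24 (limma) and 12 and 24 (edgeR), and 9 were higher and 19 lower with the block but no trend, where 8 of the 20 calls made only with the block were lost. All genes called numbered 3995 higher and 3918 lower with the block (edgeR with the block, 3873 and 3827). Scaling to a common total gave 6 members higher. Leaving out libraries gave 2 to 5 members higher and 10 to 15 lower, and 1095 to 2218 genes higher and 1170 to 2204 lower; members higher were 5 without vehicle P19, and all genes higher were 1318 without FOLFIRINOX P19. The cause was not tested; each such fit has fewer libraries.

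Reversed values were all of uncalled members with differences near 0. CCL2 was at 0.18 without FOLFIRINOX P19 and 0.083 without vehicle P14, and ranged from −0.78 to 0.18 over the fits that leave libraries out. CSF1 was at 0.060 with common-total scaling and ranged from −0.23 to 0.11. IL17RA ranged from −0.045 to 0.21 and IL6R from −0.0405 to 0.60. The median 95% half-width of a member's log2 difference was 0.79, so smaller changes could be missed, and 3 libraries per group of 1 line limit what the calls cover.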
